A study of Mus musculus with 21 samples.

Results

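Jchain, the mouse gene for the joining chain of polymeric immunoglobulins, was examined together with 8 genes of plasma cells and B cells: Mzb1, Derl3, Tnfrsf17, Pou2af1, Irf4, Eaf2, Cd79a and Cd79b. These 9 genes, of 25239 in each table, were named one by one. Jchain heads them because it was higher in choroid plexus with Ins2 overexpression than in control choroid plexus. The members were thus chosen by Jchain levels in the choroid plexus contrast, and the members' values in that contrast are given as a description, with no test. The question was whether the other 8 genes moved with Jchain.

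Messenger RNA was measured by bulk RNA sequencing of poly(A) RNA in 2 tissues of wild-type (WT) mice on the C57BL/6J background. Choroid plexus lies in the brain ventricles and makes cerebrospinal fluid, and the hypothalamus contains the arcuate nucleus, a feeding centre. From mice with choroid plexus overexpression of Ins2, one of the insulin genes of the mouse, there were 6 choroid plexus and 5 hypothalamus libraries. From controls listed as untreated there were 5 of each tissue. All groups thus share genotype and strain. The labels give no age, no statement of how Ins2 was introduced and none that replicates were separate animals, so each p-value refers to the spread between samples, which may be technical. A GFP prefix stands before the names of the hypothalamus control columns in the deposited table, and the labels do not explain it.

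Plasma cells are the end stage of the B cell lineage and secrete antibody. In them the joining chain links immunoglobulin M or A units into polymers, and the polymeric immunoglobulin receptor, encoded by Pigr, carries such polymers across epithelia. B cells that become plasma cells expand the endoplasmic reticulum, and their surface B cell receptor declines. In human blood, plasmacytoid dendritic cells are another known source of JCHAIN, MZB1 and DERL3 transcripts.

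Libraries held 25.95 to 36.3 M gene reads in choroid plexus and 27.4 to 62.1 M in hypothalamus (M, 1e+06). A gene with no read could thus have up to 3, that is 0.0483 to 0.116 reads per M, by counting error alone. Values are size-factor-scaled reads, that is, gene reads divided by the authors' size factor of the library. The labelled tissues carried their own defining genes: Ttr and Folr1 averaged 3458440 and 25691 in control choroid plexus, and Avp and Pmch averaged 11134 and 10308 in control hypothalamus. A pair of choroid plexus control libraries stood apart. Control replicate 2 held 577.5 of the hypothalamic hormone gene Avp against 0 to 6.59 in the other 10 libraries, and 4507 of the astrocyte gene Gfap against 89.6 to 453. Control replicate 5 held 439 of the MHC class II chaperone gene Cd74 against 1043 to 3271, and 247 of the macrophage gene Csf1r against 302 to 584. The main choroid plexus results are also given without these 2 libraries.

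Jchain lies on chromosome 5 of GRCm38 from 88519809 to 88527891 on the minus strand, with 4 exon blocks and 2517 exon bases, and no other annotated gene overlaps it (GENCODE). Of the other members only Mzb1 shares exon bases with another model: 57.2% of its exon bases lie in a SPATA24 model on the same strand, so its counts are uncertain. Derl3 lies on chromosome 10 (75893413 to 75895941), Tnfrsf17 and Eaf2 on chromosome 16 (11313812 to 11320074 and 36792884 to 36875003), Pou2af1 on chromosome 9 (51213708 to 51240080) and Irf4 on chromosome 13 (30749226 to 30766976). Cd79a lies on chromosome 7 (24897381 to 24902197) and Cd79b on chromosome 11 (106311341 to 106314762). None of the others is on the chromosome of Jchain.

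The 250 bases before the RefSeq start were read for the 7 members with an entry (RefSeq, GRCm38.p6). Those of Jchain are shown as the reference point, those of Pou2af1 because its level followed Jchain most closely within the Ins2 group, and those of Derl3 because its window held the most matches. They are written 5′ to 3′ on the strand of the gene, with capitals for a match to one of the motifs searched: chr5:88527898-88528147 (minus strand) for Jchain, chr9:51213440-51213689 (plus strand) for Pou2af1 and chr10:75893148-75893397 (plus strand) for Derl3.
Jchain: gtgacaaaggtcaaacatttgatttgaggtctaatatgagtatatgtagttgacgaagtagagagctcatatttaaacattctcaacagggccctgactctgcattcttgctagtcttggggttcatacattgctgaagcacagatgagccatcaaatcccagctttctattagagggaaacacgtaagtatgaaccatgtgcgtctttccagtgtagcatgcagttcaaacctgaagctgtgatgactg
Pou2af1: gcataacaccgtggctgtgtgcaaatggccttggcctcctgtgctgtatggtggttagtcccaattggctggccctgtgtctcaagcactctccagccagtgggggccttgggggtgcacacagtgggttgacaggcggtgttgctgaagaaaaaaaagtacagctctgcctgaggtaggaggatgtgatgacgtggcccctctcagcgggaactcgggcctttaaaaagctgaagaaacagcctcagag
Derl3: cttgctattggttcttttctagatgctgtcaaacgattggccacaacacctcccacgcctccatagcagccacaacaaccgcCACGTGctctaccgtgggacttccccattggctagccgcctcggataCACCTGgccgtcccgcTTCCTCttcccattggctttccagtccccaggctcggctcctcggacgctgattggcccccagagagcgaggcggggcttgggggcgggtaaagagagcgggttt

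Motifs were searched on both strands: the octamer ATGCAAAT, to which Oct factors and their coactivator Pou2af1 bind, an interferon response type (GAAA, any 2 bases, then GAAA), to which Irf factors bind, the PU.1 type GAGGAA, and the E-boxes CAGGTG and CACGTG. The octamer was in 1.6% of 32851 promoters of that length and in 0 of the 7 members. The interferon response type was in 2.98% of promoters and in Tnfrsf17, at 101 bases before the start. GAGGAA was in 23.3% of promoters and in Cd79a, Derl3, Eaf2, Irf4 and Tnfrsf17. CAGGTG was in 17.2% and in Cd79a, Derl3 and Eaf2, and CACGTG in 6.02% and in Derl3. No match overlapped another. In the Derl3 window the 3 matches lie 168, 121 and 105 bases before the start. The windows of Jchain and Pou2af1 held none of these letters, which says nothing about the factors themselves.

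In choroid plexus, Jchain was at or near the detection limit in controls and present in every Ins2 library. In control replicates 1 to 5 it had 0, 2.58, 4.35, 2.97 and 12.95 size-factor-scaled reads, from 0, 3, 4, 3 and 12 reads. In Ins2 replicates 1 to 6 it had 160.0, 35.5, 46.1, 102.4, 133.7 and 26.3, from 175, 43, 42, 92, 142 and 25 reads. The lowest Ins2 library was above the highest control, so the groups did not overlap, and the Ins2 values themselves spread widely, with replicates 1, 4 and 5 high and 2, 3 and 6 low. Over all 14533 genes tested, 0.234% were higher and 0.392% lower in Ins2 without overlap. Jchain averaged 4.57 ± 4.94 (SD, n = 5) in controls and 84.0 ± 56.1 (SD, n = 6) in the Ins2 group, a fold of 17.1 on the log2(value + 1) scale. With a control mean under the minimum of 10, it entered the fit only through the Ins2 group. Without control replicates 2 and 5 the log2 fold change was 4.63, against 4.09 with all libraries. Control replicate 5, low in Cd74 and Csf1r, had the highest control Jchain, so leaving it out by itself raises this value. In bulk tissue, fewer cells of a type and less RNA per cell cannot be told apart.

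**Figure D1:**
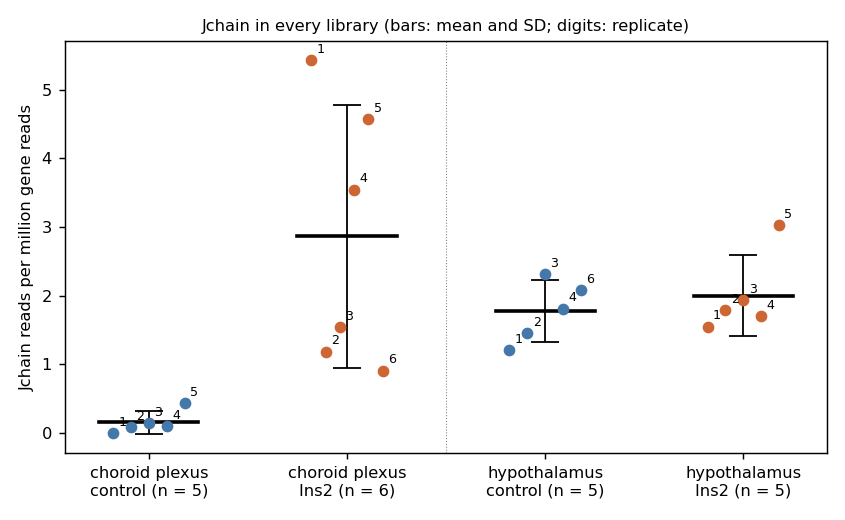
Jchain reads per M gene reads in each library (points, with replicate numbers), for choroid plexus and hypothalamus, control (blue) and Ins2 (orange); horizontal lines are means and error bars SD. Choroid plexus controls lie between 0 and 0.434, below every other library, and choroid plexus Ins2 libraries spread from 0.908 to 5.43.

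The secretory genes were detected in every choroid plexus library and overlapped between groups. Mzb1 encodes a co-chaperone of the endoplasmic reticulum that helps immunoglobulin assembly, and had 27.8, 21.5, 27.2, 16.8 and 20.5 in control replicates 1 to 5. In the Ins2 group it ran from 19.96 to 51.2 with a median of 38.7. Replicates 1, 2, 3 and 5 of that group were above all controls, whereas replicates 4 and 6 were not. Replicate 4 had Mzb1 at 23.4 with Jchain at 102.4. Replicate 6 was the lowest of the group in both genes, with Mzb1 at 19.96 and Jchain at 26.3. Replicate 1 was the highest in both, with Mzb1 at 51.2 and Jchain at 160. The Mzb1 means were 22.8 ± 4.65 (SD, n = 5) and 35.8 ± 11.9 (SD, n = 6), a fold of 1.496 (95% interval 0.944 to 2.37).

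Derl3 encodes a component of the machinery that removes misfolded proteins from the endoplasmic reticulum. It had 14.4, 60.2, 39.1, 29.7 and 7.56 in the controls, and from 10.02 to 47.6 with a median of 37.0 in the Ins2 group. Its highest library was control replicate 2, the one with Avp and Gfap, and no Ins2 library exceeded that. Derl3 means were 30.2 ± 20.9 (SD, n = 5) and 34.6 ± 13.2 (SD, n = 6), a fold of 1.29 (95% interval 0.644 to 2.58). Within the Ins2 group, Derl3 was highest in replicate 1, also the highest in Jchain, and lowest in replicate 4, with Jchain at 102.4.

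Tnfrsf17 encodes BCMA, the receptor through which plasma cells receive the survival ligands BAFF and APRIL. It was among the scarcest members, with 2.06, 1.72, 3.26, 4.95 and 2.16 in the controls. In the Ins2 group it ran from 0 to 14.6 with a median of 2.67, and replicates 2 and 6 were at 0. The one high library was Ins2 replicate 1, which was also the highest in Jchain. Its means were 2.83 ± 1.32 (SD, n = 5) and 4.26 ± 5.60 (SD, n = 6), a fold of 0.872 (95% interval 0.331 to 2.29, fitted with no filter on low values). The arithmetic mean was thus higher in the Ins2 group while the fold, taken on the log scale, was below 1.

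The transcription regulators varied within both groups. Pou2af1, the lymphoid coactivator of Oct factors, had 18.5, 9.47, 18.5, 2.97 and 8.63 in the controls and 1.05 to 25.6, with a median of 9.62, in the Ins2 group. Its means were 11.6 ± 6.77 (SD, n = 5) and 12.9 ± 9.66 (SD, n = 6) and its fold 0.961 (95% interval 0.367 to 2.52), and its highest values, 25.6 and 23.5, were in Ins2 replicates 1 and 5. Irf4, a factor needed for plasma cell formation, had 5.15, 2.58, 3.26, 4.95 and 1.08 in the controls and 0.942 to 16.5, with a median of 8.59, in the Ins2 group. Irf4 exceeded every control in 5 of 6 Ins2 libraries, and the exception was replicate 5, which had the second highest Jchain. Its fold was 1.91 (95% interval 0.849 to 4.28, no filter). Eaf2, a partner of the ELL transcription elongation factors, had 10.3, 4.30, 10.9, 21.8 and 18.3 in the controls and 7.32 to 18.7, with a median of 14.0, in the Ins2 group. Eaf2 had a fold of 1.09 (95% interval 0.54 to 2.19), and no Ins2 library exceeded the highest control. Without control replicates 2 and 5 the log2 fold changes were 0.52 for Mzb1, 0.28 for Derl3, -0.13 for Pou2af1 and -0.09 for Eaf2, against 0.58, 0.37, -0.06 and 0.12 with all libraries.

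Cd79a and Cd79b encode the signalling chains of the B cell receptor and were scarce in choroid plexus. Cd79a had 0, 14.6, 5.43, 2.97 and 5.40 in the controls and 2.101 to 13.2, with a median of 9.75, in the Ins2 group. Cd79b had 0, 1.72, 7.60, 0 and 0 in the controls and 0.915 to 6.30, with a median of 2.05, in the Ins2 group. For both genes the highest library was a control, replicate 2 for Cd79a and replicate 3 for Cd79b. Their folds were 1.73 (95% interval 0.688 to 4.37) and 1.67 (95% interval 0.707 to 3.94), both with no filter.

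Of the 9 genes only Jchain, which was chosen by this contrast, had choroid plexus groups that did not overlap. Over all genes tested, 0.234% were higher and 0.392% lower without overlap, so overlap of the other 8 is the usual case. Outside the members, the T cell genes Cxcr6 and Zap70, the latter under the minimum mean, also had groups that did not overlap. Overlap does not show that the other 8 stayed level: the upper bounds of their folds ran from 2.19 (Eaf2) to 4.37 (Cd79a). Of the 9 genes, 5 had a mean of at least 10 over the choroid plexus libraries, and Tnfrsf17, Irf4, Cd79a and Cd79b did not.

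**Figure D2:**
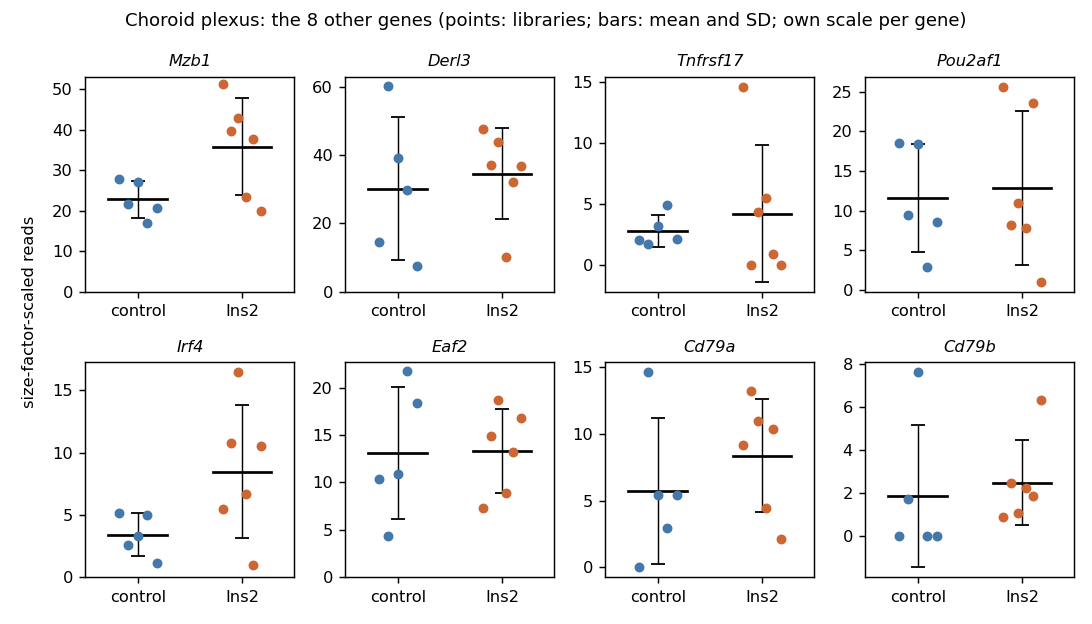
Size-factor-scaled reads of the 8 genes other than Jchain in each choroid plexus library (points), control (blue, n = 5) and Ins2 (orange, n = 6), each panel on its own scale; horizontal lines are means and error bars SD. In every panel the points of the groups overlap, as for Mzb1 with 16.8 to 27.8 in controls and 19.96 to 51.2 in the Ins2 group.

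Levels can be compared between genes only per length, here as reads per M per kb of exon. On that scale the mean level of Jchain in choroid plexus was 0.061 in controls and 1.14 in the Ins2 group. In controls this put it below Mzb1 (0.628), Derl3 (0.507), Pou2af1 (0.153), Cd79a (0.1302), Tnfrsf17 (0.117) and Eaf2 (0.101), and next to Cd79b (0.043) and Irf4 (0.023). In the Ins2 group it stood beside Mzb1 (0.999) and above Derl3 (0.589), while the other 6 members were at 0.059 to 0.195. The ratio of Jchain to Mzb1 per length had a median of 0.0772 in controls (0 to 0.305) and 1.07 in the Ins2 group (0.432 to 2.11). As the counts of Mzb1 are uncertain, so are its level per length and this ratio. The summed level of the other 8 members, which does not include Jchain, was 91.5 ± 23.3 (SD, n = 5) size-factor-scaled reads in controls and 120 ± 34.5 (SD, n = 6) in the Ins2 group, with ranges of 63.7 to 116 and 69.0 to 162.

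Covariation within the 6 Ins2 choroid plexus libraries does not use the contrast that picked Jchain, and was tested for each of the other 8 genes on log2(value + 1). All p-values are from an exact two-sided permutation over 720 pairings and were adjusted over these 8 relations. The closest relation was with Pou2af1: Pearson r was 0.82 (exact permutation p = 0.0208, adjusted p = 0.167) and Spearman rho 0.83 (exact permutation p = 0.0583, adjusted p = 0.193). Of all tested genes, 3.8% had a larger absolute r with Jchain. Without the 2 libraries farthest from the median of Jchain, Ins2 replicates 6 and 1, r was 0.59 over the 4 that remained. Tnfrsf17 had r = 0.71 and rho = 0.81 (exact permutation p = 0.122 and 0.0722; adjusted p = 0.231 and 0.193). Its r was 0.30 without those 2 libraries, and it had at most 16 reads in a library.

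The secretory genes followed Jchain less closely in these libraries. For Mzb1, r was 0.42 and rho 0.54 (exact permutation p = 0.382 and 0.297, adjusted p = 0.509 and 0.396), and r was -0.53 without those 2 libraries. For Derl3, r was -0.22 and rho 0.14 (exact permutation p = 0.839 and 0.803, adjusted p = 0.839 and 0.918), and r was -0.54 without them. Irf4 and Eaf2 ran the other way, with r of -0.71 and -0.80 and rho of -0.71 and -0.77 (exact permutation p of r = 0.075 and 0.0653, adjusted p = 0.2 for both; of rho 0.136 and 0.103, adjusted 0.218 and 0.206). Without the 2 libraries their r was -0.84 and -0.64. For Cd79a, r was 0.30 and rho 0.03 (exact permutation p = 0.544 and 1, adjusted p = 0.622 and 1), with r of -0.57 without the 2 libraries. For Cd79b, r was -0.66 and rho -0.83 (exact permutation p = 0.144 and 0.0583, adjusted p = 0.231 and 0.193), with r of 0.11 without them. No relation with any of the 8 genes passed an adjusted p of 0.05. Among all 14532 other tested genes, 4.78% had an absolute r of at least 0.8 with Jchain in these 6 libraries.

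**Figure D3:**
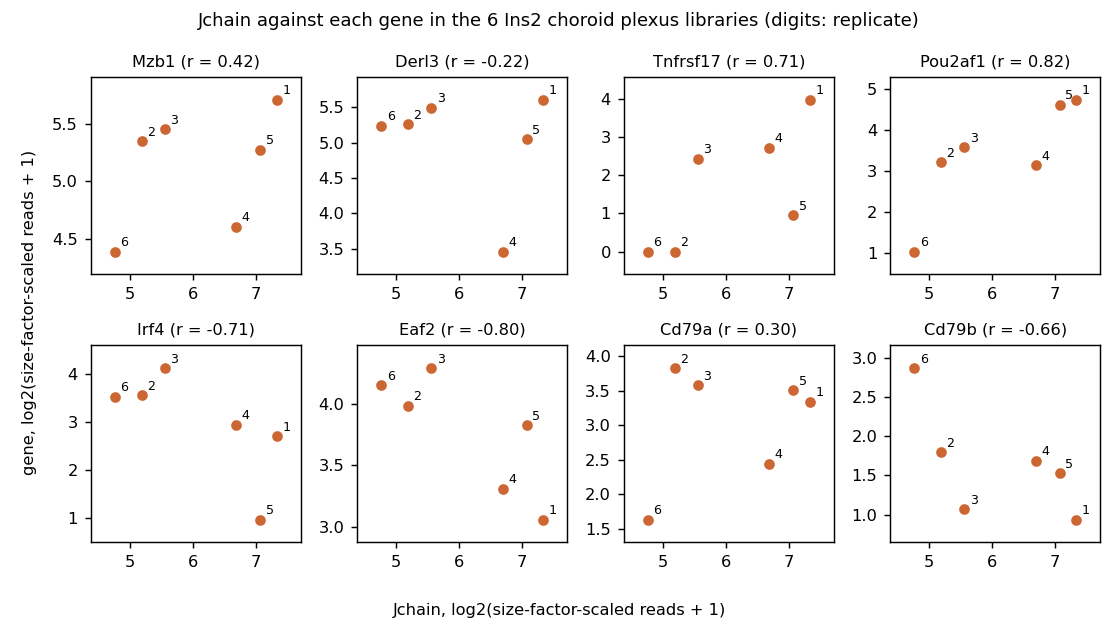
Each of the 8 other genes (vertical axis) against Jchain (horizontal axis) in the 6 Ins2 choroid plexus libraries, both as log2(size-factor-scaled reads + 1), with replicate numbers and Pearson r. Pou2af1 (r = 0.82) and Tnfrsf17 (r = 0.71) run upward, Irf4 (r = -0.71) and Eaf2 (r = -0.80) downward, and none passes the adjusted threshold.

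Jchain was also set against Ins2 itself in these libraries, a relation added after the data were seen. Pearson r was -0.38 and Spearman rho -0.26 (exact permutation p = 0.426 and 0.658, adjusted over 9 relations p = 0.548 and 0.846), and r was -0.05 without Ins2 replicates 6 and 1.

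The genes whose pattern was most like that of Jchain were sought by the correlation of deviations from the group means over all 11 choroid plexus libraries. The first 5 of 14532 were 6230400D17Rik (r = 0.91), Nt5m (r = 0.89), Scamp3 (r = 0.88), Rpa2 (r = 0.88) and Zbtb21 (r = 0.86). As the group means were taken out first, these genes were picked without regard to the group difference of Jchain. Their folds ran from 0.878 (Rpa2) to 1.30 (6230400D17Rik), with limma adjusted p of 0.911 to 0.989. These r are the highest of 14532 over 11 libraries, with 0 to 12 Jchain reads in controls. Whether they exceed chance was not tested. Among the tested members, Pou2af1 ranked 2227 (r = 0.33), Mzb1 5354 (r = 0.10), Eaf2 8279 (r = -0.07) and Derl3 10641 (r = -0.22).

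The genes beside Jchain on chromosome 5 showed no such difference. Enam and Ambn, which encode tooth enamel proteins and lie 13.8 and 51.3 kb away on one side, were at 0 in every choroid plexus library. On the other side, Utp3 at 26.6 kb averaged 716 ± 74.5 (SD, n = 5) and 715 ± 35.4 (SD, n = 6), a fold of 1.002 (limma adjusted p = 0.996). Rufy3 at 37.1 kb averaged 938 ± 60.4 (SD, n = 5) and 903 ± 63.2 (SD, n = 6), a fold of 0.962 (limma adjusted p = 0.939).

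Other genes of plasma and B cells, and genes of other immune and blood cells, were read from 13 lists of 164 genes. Of these, 147 were in the table and 81 were tested in choroid plexus. By limma 0 of the 81 had an adjusted p under 0.05, where 0.0138% of all genes tested did, and edgeR and DESeq2 also called 0 of them. At an unadjusted p under 0.05 there were 11, of which 10 were higher in the Ins2 group, or 13.6% against 6.21% of all genes tested. Only 1 of the 10 was from the plasma cell list and 1 from the B cell list. The MHC class II list gave 4, the T and NK cell list 2, and the dendritic cell and recruitment lists 1 each. Of those 10, Slamf7, Cd8a and Itgax passed the minimum mean only through the Ins2 group, so that count and share are raised by the filter. Over all genes tested in choroid plexus, 48.4% had a log2 fold change above 0, to be set beside the choroid plexus counts below. Without control replicates 2 and 5 limma again called 0 of these genes. The lists were chosen with results of these data known and give no independent support.

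Plasma cell genes other than the 9 lay around 0: 4 of 10 tested had a log2 fold change above 0 and the median was -0.07, against 0.00 over all genes tested. Several of them, such as Xbp1 and Sdc1, are also known from secretory or lining epithelia. Xbp1, the factor that drives the secretory program, averaged 2945 ± 411 (SD, n = 5) and 3300 ± 594 (SD, n = 6), a fold of 1.12 (limma adjusted p = 0.863). Sdc1, the gene of the plasma cell surface marker CD138, averaged 412 ± 63.3 and 394 ± 83.8, a fold of 0.949 (limma adjusted p = 0.957). Txndc5 and Tent5c had folds of 0.951 and 0.925 (limma adjusted p = 0.908 and 0.888). Fcrl5 was at 0 in every choroid plexus library. Slamf7, a surface receptor of plasma cells and of other lymphocytes and myeloid cells, was the 1 gene of the list at an unadjusted p under 0.05 and is named after its values were seen. It had 11.3, 12.9, 11.9, 5.94 and 0 in the controls and 32.0, 27.3, 35.1, 12.2, 16.0 and 35.7 in the Ins2 group, a fold of 3.72 (95% interval 1.51 to 9.13). Its limma adjusted p was 0.584. It entered the fit only through the Ins2 group, and its log2 fold change was 1.30 without control replicates 2 and 5 against 1.89 with all libraries. Ins2 replicates 4 and 5, high in Jchain, were the lowest of that group in Slamf7, while replicate 6, lowest in Jchain, was the highest, and replicate 1, highest in Jchain, was among the higher ones.

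Chaperones of the endoplasmic reticulum, the machinery of antibody secretion, were abundant in all libraries, and 2 of 13 had a log2 fold change above 0, the median being -0.05. Hspa5, encoding the chaperone BiP, averaged 33667 ± 7220 (SD, n = 5) and 32167 ± 6285 (SD, n = 6), a fold of 0.957 (limma adjusted p = 0.960). Hsp90b1 had a fold of 0.937 (limma adjusted p = 0.913). Immunoglobulin heavy and light chain genes, the direct partners of the joining chain, were not analysed here, so these data do not tell how they stood.

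Receptors and carriers of immunoglobulin were also followed. Pigr, the receptor for joining chain polymers, had at most 2.06 in a control and 4.96 in an Ins2 library and was under the minimum for the test. Fcgrt, the neonatal Fc receptor gene, averaged 2101 ± 189 (SD, n = 5) and 2024 ± 182 (SD, n = 6), a fold of 0.963 (limma adjusted p = 0.943). In this list 3 of 5 tested genes were above 0, with a median of 0.14. Among genes for recruitment and survival of plasma cells, 9 of 13 were above 0 with a median of 0.10, where 48.4% of all genes tested were above 0. Ltb, which is among the 9, passed the minimum only through the Ins2 group, so that count is raised by the filter. In this list Vcam1, an adhesion receptor, had a fold of 1.07 (limma adjusted p = 0.804). Icam1, another adhesion gene, averaged 465.9 ± 46.2 and 584.5 ± 109, a fold of 1.24 (limma adjusted p = 0.717).

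B cell genes were mostly scarce. Of 20 in the list, 7 were tested, 5 of them with a log2 fold change above 0, and the median was 0.69. Ms4a1, a defining B cell gene that encodes CD20, had 0 in every control and at most 0.942 in an Ins2 library. Cd72, a B cell surface gene also found on other cells, averaged 17.7 ± 4.74 (SD, n = 5) and 33.45 ± 15.3 (SD, n = 6), a fold of 1.74 (limma adjusted p = 0.793). The summed level of the list was 131 to 272 in controls and 190 to 310 in the Ins2 group, so the groups overlapped.

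Other immune lists had higher medians in the Ins2 group, and their part in the Jchain difference was not tested. For T and NK cell genes, 5 of 6 tested were above 0 with a median of 1.02. As 2 of the 6, Cd8a and Cd2, passed the minimum only through the Ins2 group, that count and median are raised by the filter. The summed level, over tested and untested genes, was 89.6 to 175 in controls and 156 to 403 in the Ins2 group. Cd8a, the coreceptor of cytotoxic T cells, had 4.12, 2.58, 17.4, 5.94 and 0 in the controls and 44.8, 43.0, 13.2, 18.9, 8.48 and 65.1 in the Ins2 group (fold 5.64, limma adjusted p = 0.456). Its log2 fold change was 1.62 without control replicates 2 and 5. The Ins2 replicate highest in Jchain, 1, was second in Cd8a, whereas replicate 6, lowest in Jchain, was the highest in Cd8a and replicate 5, second in Jchain, the lowest. Cxcr6, a chemokine receptor of tissue T cells, had a fold of 2.39 (limma adjusted p = 0.501). MHC class II genes had 6 of 7 above 0, a median of 0.71 and summed levels of 1627 to 5432 and 3182 to 7312. Cd74 averaged 1282 ± 634 (SD, n = 5) and 2295 ± 809 (SD, n = 6), a fold of 1.91 (limma adjusted p = 0.584), and its log2 fold change was 0.52 without control replicates 2 and 5. Macrophage genes had 8 of 12 above 0 with a median of 0.24. Dendritic cell genes had 4 of 5 above 0 with a median of 0.27, of which Itgax passed the minimum only through the Ins2 group. Siglech, listed for plasmacytoid dendritic cells, averaged 20.5 ± 7.98 and 23.3 ± 8.90, a fold of 1.12 (limma adjusted p = 0.972). In control hypothalamus it averaged 450 ± 57.6 (SD, n = 5), and whether it reads those cells alone was not tested. Klk1 and Cox6a2 of that list were under the minimum, with folds of 0.637 and 1.13 (no filter). Of the red blood cell genes, Alas2, the erythroid enzyme of heme synthesis, had 43.9 to 104 in controls and 51.3 to 148 in the Ins2 group (fold 1.10, limma adjusted p = 0.964). The 4 hemoglobin genes are only listed at 0 in every library, which cannot be read as the absence of blood. No neutrophil gene reached the minimum.

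**Figure D4:**
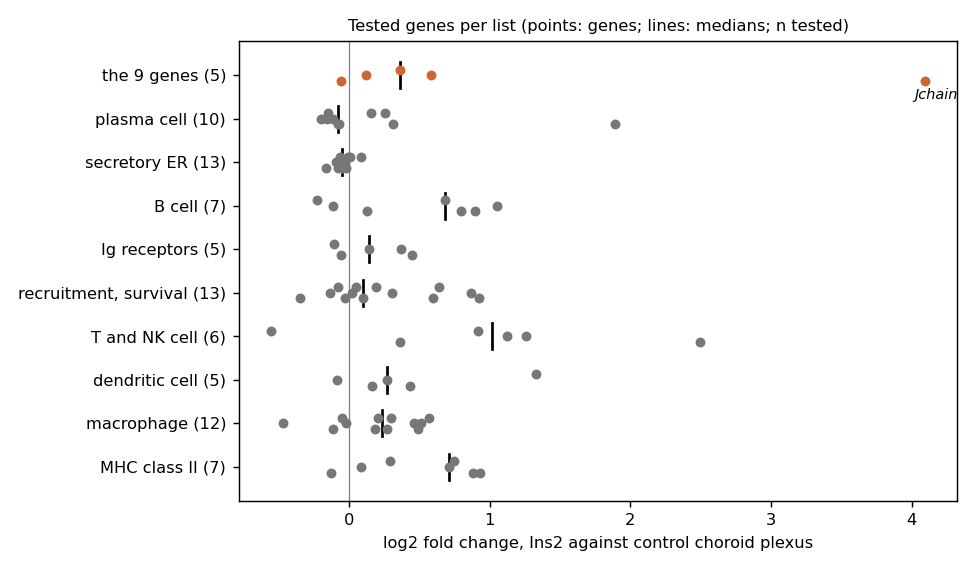
Log2 fold change in choroid plexus, Ins2 against control (horizontal axis), of each tested gene (points) in the lists with at least 5 tested genes, with the number tested in brackets and a black line at each list's median. Jchain lies at 4.09, apart from the 4 other members tested (-0.06 to 0.58) and from the plasma cell list (median -0.07); T and NK cell (1.02) and MHC class II (0.71) medians are the highest.

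In hypothalamus, which the choice of genes did not use, Jchain was present in all 10 libraries at about the same level in both groups. It had 42.5, 51.3, 81.3, 63.4 and 73.9 size-factor-scaled reads in control replicates 1, 2, 3, 4 and 6. In Ins2 replicates 1 to 5 it had 54.8, 63.8, 68.9, 60.9 and 107.1. The groups overlapped, and only Ins2 replicate 5 exceeded the highest control. The means were 62.5 ± 15.9 (SD, n = 5) and 71.1 ± 20.8 (SD, n = 5), a fold of 1.13 (95% interval 0.798 to 1.61). Neither limma (adjusted p = 0.832) nor the exact two-sided permutation test over 252 splits (p = 0.532) passed the threshold. By limma 0 of the 6 members tested were called, where 0% of all 16363 genes were. For all genes, 1624 had an unadjusted p under 0.05, and edgeR and DESeq2 called 0 and 41 (0.251%). Ranges did not overlap for 0 of the 9 members, where 0.77% of all genes were higher and 0.727% lower in Ins2 without overlap.

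None of the other 8 genes passed the exact permutation test in hypothalamus. Derl3 was the most abundant of them, with 75.3, 62.7, 36.2, 58.4 and 45.4 in the controls and 68.5, 85.7, 42.3, 82.8 and 63.9 in the Ins2 group, a fold of 1.23 (limma adjusted p = 0.716, exact permutation p = 0.238). Eaf2 ran from 38.8 to 59.7 and from 41.3 to 69.0, a fold of 1.07 (limma adjusted p = 0.921, exact permutation p = 0.579). Mzb1 was lower than in the choroid plexus table, though the 2 tables were scaled separately: it had 8.95, 11.4, 17.6, 12.7 and 20.8 in the controls and 11.6, 14.95, 4.92, 12.6 and 9.27 in the Ins2 group (fold 0.754, limma adjusted p = 0.805, exact permutation p = 0.238). Its direction was opposite to that of Jchain in this tissue, and neither passed.

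Irf4 ran from 6.49 to 29.8 in hypothalamus controls and from 6.33 to 36.4 in the Ins2 group (fold 1.38, limma adjusted p = 0.790, exact permutation p = 0.381). Cd79a ran from 3.89 to 22.8 and from 1.97 to 26.4 (fold 0.807, limma adjusted p = 0.902, exact permutation p = 0.952). The remaining members were near the detection limit and were fitted with no filter. Tnfrsf17 had 0, 7.98, 0.979, 10.1 and 14.3 in the controls and 1.05, 0, 4.92, 1.15 and 1.03 in the Ins2 group, a fold of 0.445 (95% interval 0.153 to 1.29, exact permutation p = 0.159). Pou2af1 had at most 4.90 in a control and 8.05 in an Ins2 library, a fold of 2.23 (95% interval 0.956 to 5.19, exact permutation p = 0.135). Cd79b had at most 10.1 and 10.8, a fold of 0.524 (95% interval 0.182 to 1.51, exact permutation p = 0.413). Pou2af1 and Tnfrsf17, which ran upward with Jchain within the Ins2 choroid plexus libraries, thus had folds on opposite sides of 1 here.

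**Figure D5:**
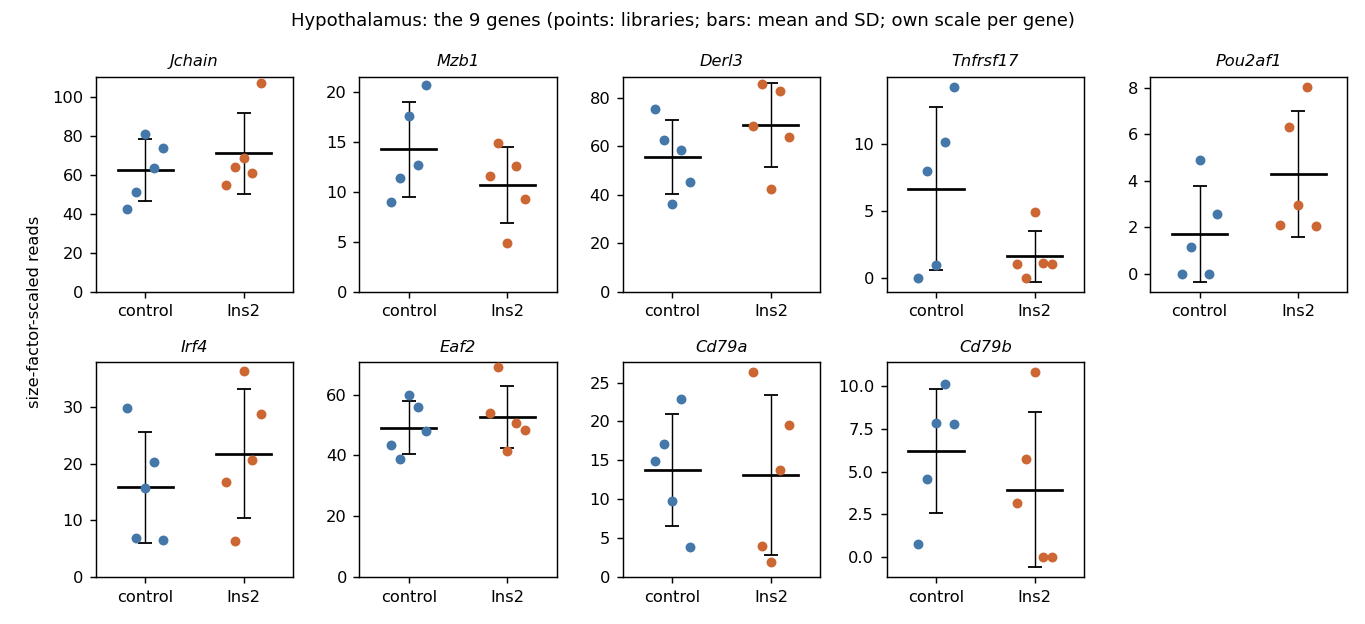
Size-factor-scaled reads of the 9 genes in each hypothalamus library (points), control (blue, n = 5) and Ins2 (orange, n = 5), each panel on its own scale; horizontal lines are means and error bars SD. The groups overlap for all 9 genes, Jchain included (42.5 to 81.3 against 54.8 to 107.1).

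The lists had 87 tested genes in hypothalamus, of which limma, edgeR and DESeq2 each called 0. At an unadjusted p under 0.05 there were 7, of which 2 were higher in the Ins2 group, or 8.05% against 9.92% of all genes tested. Among the plasma cell genes 3 of 10 had a log2 fold change above 0 and the median was -0.02, and Xbp1 had a fold of 0.978 (limma adjusted p = 0.864). T and NK cell genes had a median of 0.06 and MHC class II genes one of 0.00.

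Expressed as reads per M gene reads, so that the order over all groups can be given, Jchain was lowest in control choroid plexus (0.153 ± 0.166, SD, n = 5). It was higher in control hypothalamus (1.77 ± 0.450, SD, n = 5), in Ins2 hypothalamus (2.001 ± 0.592, SD, n = 5) and in Ins2 choroid plexus (2.87 ± 1.92, SD, n = 6). The last 3 groups overlapped, so their order is uncertain, whereas control choroid plexus, at 0 to 0.434, overlapped none of them. No test was made between tissues. The libraries of control choroid plexus were as deep as those of the Ins2 group, at 27.6 to 34.9 M against 25.95 to 36.3 M. Per length, Jchain relative to Mzb1, whose counts are uncertain, had a median of 2.23 in control hypothalamus (1.72 to 2.41) and 2.33 in Ins2 hypothalamus (2.06 to 6.76). In choroid plexus the ratio reached 0.305 in a control at most, and in the Ins2 group it was 1.508, 0.432, 0.520, 2.115, 1.714 and 0.635 in replicates 1 to 6, so replicates 2, 3 and 6 lay nearer to the controls than to any hypothalamus library.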

How the data were processed

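Bulk RNA sequencing libraries of choroid plexus (11) and hypothalamus (10) were analysed. PicoPure-isolated RNA was made into dUTP directional poly(A) libraries, per the labels' protocols. HISAT2, featureCounts and DESeq2 with GRCm38 (mm10) are named in the submitters' processing notes; the strand setting and tool versions were not given in the sources used here. The deposited signal values are gene counts that the authors divided by size factors, 1 table per tissue. Dividing by each library's smallest step gave whole reads, within 0.02, for 100% of values.

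Genes averaging 10 or more (14533 and 16363) were fitted within each tissue with limma 3.58.1 (R 4.3.3, lmFit and eBayes with trend) on log2(value + 1), with no covariate, two-sided, Benjamini-Hochberg threshold 0.05. Members under the minimum take values from the fit with no filter. Folds, being on the log2(value + 1) scale, understate low genes; intervals are at 95%. Single genes had an exact permutation test. edgeR 4.0.16 and DESeq2 1.42.0 were run on recovered reads, beside other pseudocounts, filters, scaling and left-out libraries. The limma fit was tested on simulated data, and the edgeR and DESeq2 fits were not. No 2 libraries of a group were alike enough to be 1 library: the lowest chi-square per gene was 5.49.

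Genes named are the 9 members; in each list those with adjusted p under 0.05 and up to 4 of the highest mean; the 5 genes whose deviations correlate most with those of Jchain; and the 2 nearest genes on each side of it. Further genes are named as seen. Members and lists were chosen with earlier results of these data known. Sequences are from RefSeq (GRCm38.p6) and gene positions from GENCODE (GRCm38).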

Additional observations from a re-analysis of the deposited data

Results flagged for a closer look

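In 4 of 36 groups of values (9 genes in 4 groups) 1 library lay far from the others of its group, by the ratio of its gap to the nearest library to the range of the group. For normally distributed values, chance alone gives such a library in about 1 of 20 groups. That rate need not hold for scarce counts such as those of Tnfrsf17 and Cd79b. Jchain in hypothalamus Ins2 replicate 5 was 107.1 size-factor-scaled reads against 68.9 for the next library. Tnfrsf17 in hypothalamus Ins2 replicate 3 was 4.92 against 1.15. Cd79b in choroid plexus control replicate 3 was 7.605 against 1.72, and in choroid plexus Ins2 replicate 6 it was 6.30 against 2.48. The Tnfrsf17 and Cd79b values rest on at most 7 reads.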

How the results depend on the processing

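Jchain in choroid plexus kept its direction in all 19 alternatives, with log2 fold changes of 3.08 (pseudocount 5) to 4.63 (without control replicates 2 and 5, added after the data were seen); it has no value with a minimum mean of 50. In hypothalamus its log2 fold change was 0.02 to 0.28 over 18 alternatives, with limma or edgeR adjusted p of 0.692 to 0.985. No setting called a list gene or a hypothalamus member. Mzb1 in choroid plexus ran from 0.47 to 0.73 and was above 0 in all 19 alternatives. Pou2af1 there ran from -0.42 to 0.41 and was above 0 in 7 of 19. Derl3 ran from -0.02 to 0.69 (18 of 19 above 0) and Eaf2 from -0.19 to 0.335 (17 of 19). The Pearson r of Jchain with Pou2af1 was 0.59 to 0.88, that with Mzb1 -0.53 to 0.66. Numbers of all genes called moved by more than 1.5 times: in choroid plexus from 2 to 34 with DESeq2, 4 without Ins2 replicate 5 and 1 with a minimum mean of 50 or without Ins2 replicate 1, Ins2 replicate 4 or control replicate 4; in hypothalamus from 0 to 57 with the replicate block, 41 with DESeq2, 18 without control replicate 6 and 1 without control replicate 4. The causes were not tested. Same-numbered libraries did not deviate together over all genes tested (correlations of -0.15 to 0.14 in choroid plexus and -0.07 to 0.01 in hypothalamus). No pairing by number was thus used in the main fit, though a link that acts on few genes could be missed this way. With the replicate block Jchain was at 4.36 in choroid plexus and 0.09 in hypothalamus (limma adjusted p = 0.928), with 0 hypothalamus members and 0 list genes called in either tissue. Depth limits Tnfrsf17, Irf4, Cd79a and Cd79b in choroid plexus and Tnfrsf17, Pou2af1 and Cd79b in hypothalamus, which have a value with no filter alone.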
